A study of Mus musculus with 7 samples.

Results

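Metallothioneins are small cysteine-rich proteins that bind zinc and copper in the cytosol, and zinc crosses membranes through 2 families of transporters. Members of the Slc30 family move zinc out of the cytosol, and members of the Slc39 family move it in. Described here are 6 genes of this system, chosen by symbol, and 6 of 6 were rows of the matrix of 27998 genes. They are the metallothioneins Mt1 and Mt2, the exporters Slc30a1 and Slc30a2, and the importers Slc39a8 and Slc39a14. Each was measured in single cells of the mammary glands of 3 young mice (3 to 4 months; Young A, B and C) and 4 aged mice (13 to 14 months; Aged A, B, C and D). All were virgin females in diestrus, of a mixed background of FVB, 129 and C57BL/6J. Their #4 glands were dissociated after the lymph nodes had been taken out, and 1 library was made per mouse. The matrix held 13684 cells, and the 13 cell types are those that the authors deposited.

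In metallothionein biology, free zinc is sensed by the transcription factor Mtf1, which binds metal response elements in the promoters of Mt1, Mt2 and Slc30a1. Metallothionein genes are also known to respond to glucocorticoids and to oxidative stress, so their transcript level is a common readout of metal load and of stress. In the mammary gland, zinc transporters carry zinc into secretory vesicles and into milk, and Slc30a2 is the transporter best known for this in lactation.

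Counts are unique molecular identifiers (UMIs), and a level is given in CPM, the UMIs of a gene per 1000000 UMIs of all cells of 1 type in 1 mouse. Libraries of 3′ ends count a molecule once whatever its length, and CPM was not divided by length. The mice had 6652599 to 16547583 UMIs in all in the young and 10207251 to 16999625 in the aged group, and the median cell of a mouse had 4758.5 to 5253 UMIs in young and 5582 to 7109.5 in aged mice. Median mitochondrial shares were 3.18% to 3.68% in young and 2.48% to 2.82% in aged mice. Cell barcodes were written in a different format in all young than in all aged mice, so an effect of age and one of how the libraries were processed cannot be told apart wherever the age groups are compared below. Of 13583 distinct barcodes, 101 occurred in more than 1 mouse. Every type tested for age carried its own markers in both groups, except that Cd79a was at 0 in the T and B cells of young mice.

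Mt2 and Mt1 are neighbours on chromosome 8 (GRCm38, chr8:94172664-94173568 and chr8:94179082-94180327, both on the plus strand), with 5513 bases between them. Slc30a1 is at chr1:191906767-191913247, Slc30a2 at chr4:134343181-134354484 and Slc39a8 at chr3:135825279-135888572, all on the plus strand, and Slc39a14 is at chr14:70303469-70351425 on the minus strand. All 6 are annotated as protein-coding. The windows of 250 bases upstream of the RefSeq start of the genes known to respond to Mtf1 (RefSeq, GRCm38.p6, plus strand) are shown here because Mt1 and Mt2 moved unequally with age and Slc30a1 moved opposite to Mt2 in 1 cell type. Capitals mark the core of the metal response element, TGCACNC or TGCGCNC, which was searched on both strands.
Mt1 (chr8:94178839-94179088): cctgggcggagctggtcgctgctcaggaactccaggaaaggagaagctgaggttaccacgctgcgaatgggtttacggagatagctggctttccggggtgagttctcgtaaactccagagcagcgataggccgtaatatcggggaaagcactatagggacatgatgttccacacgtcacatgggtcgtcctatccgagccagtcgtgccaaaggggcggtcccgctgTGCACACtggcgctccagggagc
Mt2 (chr8:94172368-94172617): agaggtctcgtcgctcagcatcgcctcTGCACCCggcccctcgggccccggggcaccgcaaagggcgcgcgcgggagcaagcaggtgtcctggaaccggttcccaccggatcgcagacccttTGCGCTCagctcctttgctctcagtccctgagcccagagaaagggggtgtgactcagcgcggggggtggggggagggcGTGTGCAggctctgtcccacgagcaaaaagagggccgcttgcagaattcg
Slc30a1 (chr1:191906531-191906780): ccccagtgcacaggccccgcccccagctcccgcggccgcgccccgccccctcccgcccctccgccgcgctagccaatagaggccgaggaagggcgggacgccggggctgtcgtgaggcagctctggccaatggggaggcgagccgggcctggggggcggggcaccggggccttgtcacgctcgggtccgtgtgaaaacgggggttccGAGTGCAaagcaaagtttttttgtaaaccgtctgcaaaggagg

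The Mt1 window held 1 core, the Mt2 window 3 and the Slc30a1 window 1, and 21.4% of 32851 mouse windows of this length held at least 1 of either form (10.4% TGCACNC and 12.5% TGCGCNC). The window of Slc30a2 held 2 cores, and those of 2 starts of Slc39a8 held 0 and 1. The windows follow RefSeq and do not all meet the gene starts given above. Those of Slc30a2 (chr4:134343216-134343465) and of the 2nd Slc39a8 start (chr3:135825407-135825656) lie inside the annotated genes. The windows of Mt1 and Slc30a1 run past the gene start, and that of Mt2 ends before it. The core of the antioxidant response element, TGACNNNGC, occurred once each in the windows of Mt2, Slc30a1 and the 1st Slc39a8 start. It occurred in 10.2% of all windows. Slc39a14 had no upstream window in the reference used.

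More cores lay in the annotated first exons (GENCODE vM21). They are printed because the cores counted depend on where a start is annotated, and the start in use was not measured here. The first 200 bases of the annotated Mt1 transcript held 4 metal response cores, and 0.103% of 55220 transcripts held at least as many there. Those of Mt2 held 3, and 0.581% of transcripts held at least as many. At least 1 core was found in 18.9% of transcripts. Mt1 also had 1 antioxidant core there, as 9.17% of transcripts did, and Mt2 had 0. A match of letters is a description and does not show binding. These cores may lie upstream of the start in use, and the differences in count between Mt1 and Mt2 may follow where each window was cut. Each stretch has its core in capitals.
Mt1 (chr8:94179085-94179103): gagctcTGCACTCcgcccg
Mt1 (chr8:94179103-94179121): gaaaagTGCGCTCggctct
Mt1 (chr8:94179167-94179185): cctgctGGGTGCAaaccct
Mt1 (chr8:94179181-94179199): acccttTGCGCCCggactc
Mt1, antioxidant core (chr8:94179135-94179155): ggcgcgTGACTATGCgtgggc
Mt2 (chr8:94172670-94172688): aagggcGTGTGCAggcggc
Mt2 (chr8:94172689-94172707): gggggcGCGTGCAtggtgc
Mt2 (chr8:94172723-94172741): agctttTGCGCTCgaccca

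Metallothionein transcripts were among the most abundant of the gland in fibroblasts and myoepithelial cells and much scarcer in luminal cells. Mt1 averaged 14488 ± 6190 CPM in fibroblasts (SD, n = 7 mice here and below unless stated), 11406 ± 5450 in myoepithelial cells, 9096 ± 3235 in pericytes and 4960 ± 2194 in vascular endothelial cells. Hormone-sensing (HS) luminal cells had 2821 ± 987 CPM and alveolar (AV) luminal cells 1806 ± 1437. Mt2 followed with 12368 ± 5469 CPM in fibroblasts, 9668 ± 3038 in myoepithelial cells, 4397 ± 1903 in vascular endothelial cells, 3003 ± 982 in pericytes, 1897 ± 1147 in HS and 972 ± 919 in AV cells. Among all genes ranked by mean CPM, Mt1 was the 2nd and Mt2 the 4th in both fibroblasts and myoepithelial cells. Together they took up 2.69% ± 1.14 of all UMIs of fibroblasts and 2.11% ± 0.807 of those of myoepithelial cells, against 0.278% in AV cells.

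**Figure D1:**
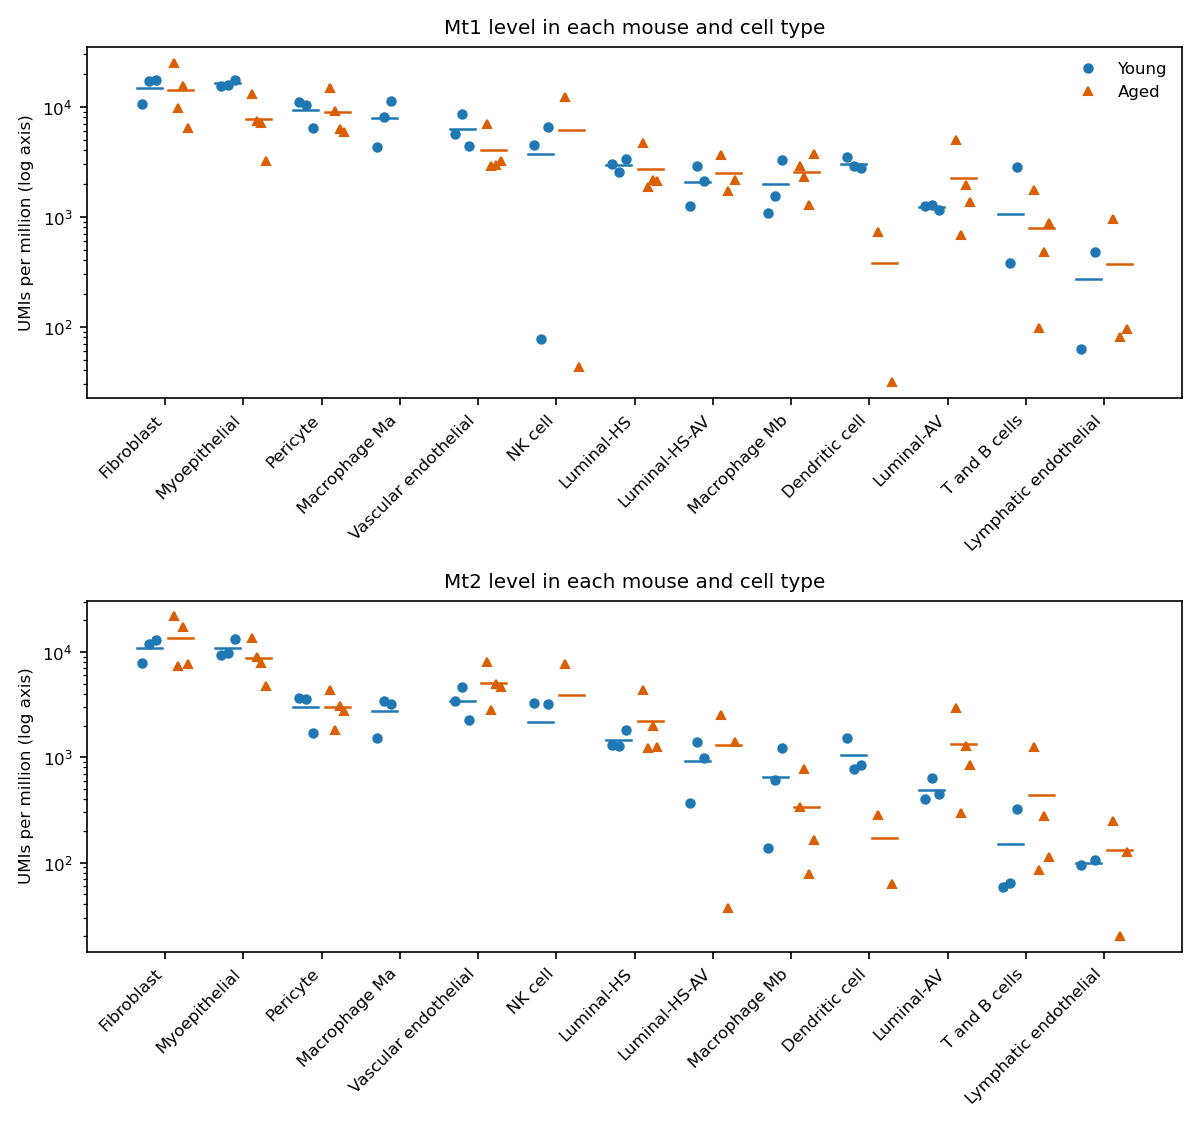
Mt1 (top) and Mt2 (bottom) in CPM (UMIs of the gene scaled to an equal total) on a log axis, for each cell type (ordered by mean Mt1) and each mouse with at least 3 cells of it (blue circles, young; orange triangles, aged; bars, group means). Values of 0 cannot be drawn on a log axis and are left out. Fibroblasts and myoepithelial cells have the highest means over all mice for both genes, and the mice of 1 type spread several-fold. For Mt1, myoepithelial cells were above pericytes in 4 of 7 mice.

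The order of the highest types was not the same in every mouse. Fibroblasts were above myoepithelial cells in 5 of 7 mice for Mt1 and in 4 of 7 for Mt2, so these types did not differ beyond their spread. Myoepithelial cells were above pericytes in 4 of 7 mice for Mt1, so this order was not stable either. Both genes were higher in myoepithelial than in AV or HS cells in 7 of 7 mice. The mean log2 difference of myoepithelial over AV cells was 2.73 ± 1.18 for Mt1 and 3.67 ± 1.19 for Mt2. Pericytes and vascular endothelial cells, the wall and the lining of blood vessels, had opposite orders for the 2 genes. Mt1 was higher in pericytes in 7 of 7 mice and Mt2 higher in vascular endothelial cells in 6 of 7. Lymphatic endothelial cells had little of either, 332 CPM of Mt1 and 119 of Mt2 (n = 5 mice), and were below vascular endothelial cells in 5 of 5 mice. In the 3 mice with at least 3 cells of both macrophage types, all young, Mt1 was higher in Ma (7910 ± 3495 CPM, n = 3) than in Mb macrophages in 3 of 3.

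Within a cell type the metallothioneins were unevenly spread over cells. The median fibroblast had 59 Mt1 UMIs and the highest 520, whereas the median AV cell had 3 and the highest 298. With each cell thinned to 2000 UMIs, the top 10% of cells held on average 29.9% of Mt1 UMIs in fibroblasts and 30.1% in myoepithelial cells, against 54.5% in AV, 52.7% in HS and 48.4% in vascular endothelial cells. Cells high in one were high in the other. The correlation of Mt1 with Mt2 over the cells of 1 mouse, which share library and depth, had a median over mice of 0.76 in myoepithelial cells, 0.73 in HS cells, 0.72 in fibroblasts and 0.55 in vascular endothelial cells. A Mt1 UMI was found in 99.5% of fibroblasts (98.1% after thinning) and in 81.6% of AV cells (60.0%), at median depths of 4414 and 6632 UMIs. No type lacked Mt1, and the lowest share before thinning was 53.3% of T and B cells (32 of 60 cells, median depth 4391.5). After thinning it was 28.6% of lymphatic endothelial cells (8 of 28), against 35% of T and B cells. With Mt1 in every type, free RNA in the droplets was not measured apart from low expression.

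The exporter Slc30a1, which moves zinc out through the plasma membrane, had its highest means in the cells of blood vessels and was scarce in epithelium. It averaged 47.4 ± 20.8 CPM in pericytes and 39.8 ± 30.1 in vascular endothelial cells, and pericytes were higher in 5 of 7 mice, so the order of these types was not stable. The level in vascular endothelial cells was lower in aged than in young mice, as given below. Pericytes also carried vascular endothelial markers, which are given below with the other markers. Ma macrophages followed with 32.2 CPM (n = 3, all young mice, the lowest at 0), and 18.0% of them had a UMI. The means of pericytes and vascular endothelial cells cover aged mice too. Means were 19.2 CPM in Mb macrophages, 18.2 in NK cells (n = 5) and 13.7 in T and B cells, on 15, 2 and 3 UMIs. AV cells had 12.9 ± 4 CPM, fibroblasts 11.9, myoepithelial cells 11.1 and HS cells 5.5. AV exceeded HS cells in 7 of 7 mice. Fibroblasts and myoepithelial cells, the types with the most metallothionein, were thus below pericytes for this exporter, fibroblasts in 7 of 7 mice. A UMI was found in 21.8% of pericytes (median depth 5065) and in 4.02% of HS cells (median depth 7277).

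The importer Slc39a8, a plasma membrane carrier of zinc, manganese and cadmium, was mainly endothelial. Its mean was 75.7 ± 51.8 CPM in vascular endothelial cells and 30.2 ± 25.5 in pericytes, with the endothelial value higher in 7 of 7 mice. Myoepithelial cells had 8.2 ± 6.2 CPM, fibroblasts 3.3, AV cells 1.7 and HS cells 0.3. A UMI was found in 25.6% of vascular endothelial cells (465 of 1819, median depth 4907), against 0.234% of HS cells (5 of 2138, median depth 7277), which serve here as the background. It was found in 0 of 28 lymphatic endothelial cells, which allows a share of up to 10.7%, and in 0 of 60 T and B cells (up to 5%). These limits cover counting error only and bound the cells with a UMI at this depth, not the cells that express the gene. Vascular endothelial cells held 77.8% ± 9.9 of all Slc39a8 UMIs of a young gland (n = 3) and 65.3% ± 11.4 of those of an aged gland (n = 4).

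The importer Slc39a14, which carries zinc, iron and manganese, had its highest mean in AV cells, the secretory lineage. It averaged 52.6 ± 18.7 CPM there, 35.2 ± 48.5 in lymphatic endothelial (n = 5), 33.6 ± 32.0 in HS-AV (n = 6), 29.2 ± 11 in myoepithelial cells, 25.2 in pericytes, 22.5 in vascular endothelial cells, 19.2 ± 4.1 in fibroblasts and 11.2 ± 3.8 in HS cells. The lymphatic value rests on 7 UMIs, all in aged mice, whose mean of 58.7 CPM was above that of AV cells (54.5), so the order of these types was not stable. AV cells were above HS cells and above myoepithelial cells in 7 of 7 mice each, whereas fibroblasts, pericytes and vascular endothelial cells did not keep 1 order over the mice. A UMI was found in 27.2% of AV cells (1309 of 4820) and in 8.75% of HS cells, although HS cells were deeper. The lactation-linked exporter Slc30a2 had only 21 UMIs in the whole matrix, 9 of them in AV, 7 in HS, 2 in myoepithelial, 2 in vascular endothelial and 1 in HS-AV cells (which carry markers of both luminal types). It was tested in 0 cell types for low counts, and 0 of 1993 fibroblasts had a UMI, which allows a share of up to 0.151% of cells with a UMI and sets no limit on cells that express the gene.

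**Figure D2:**
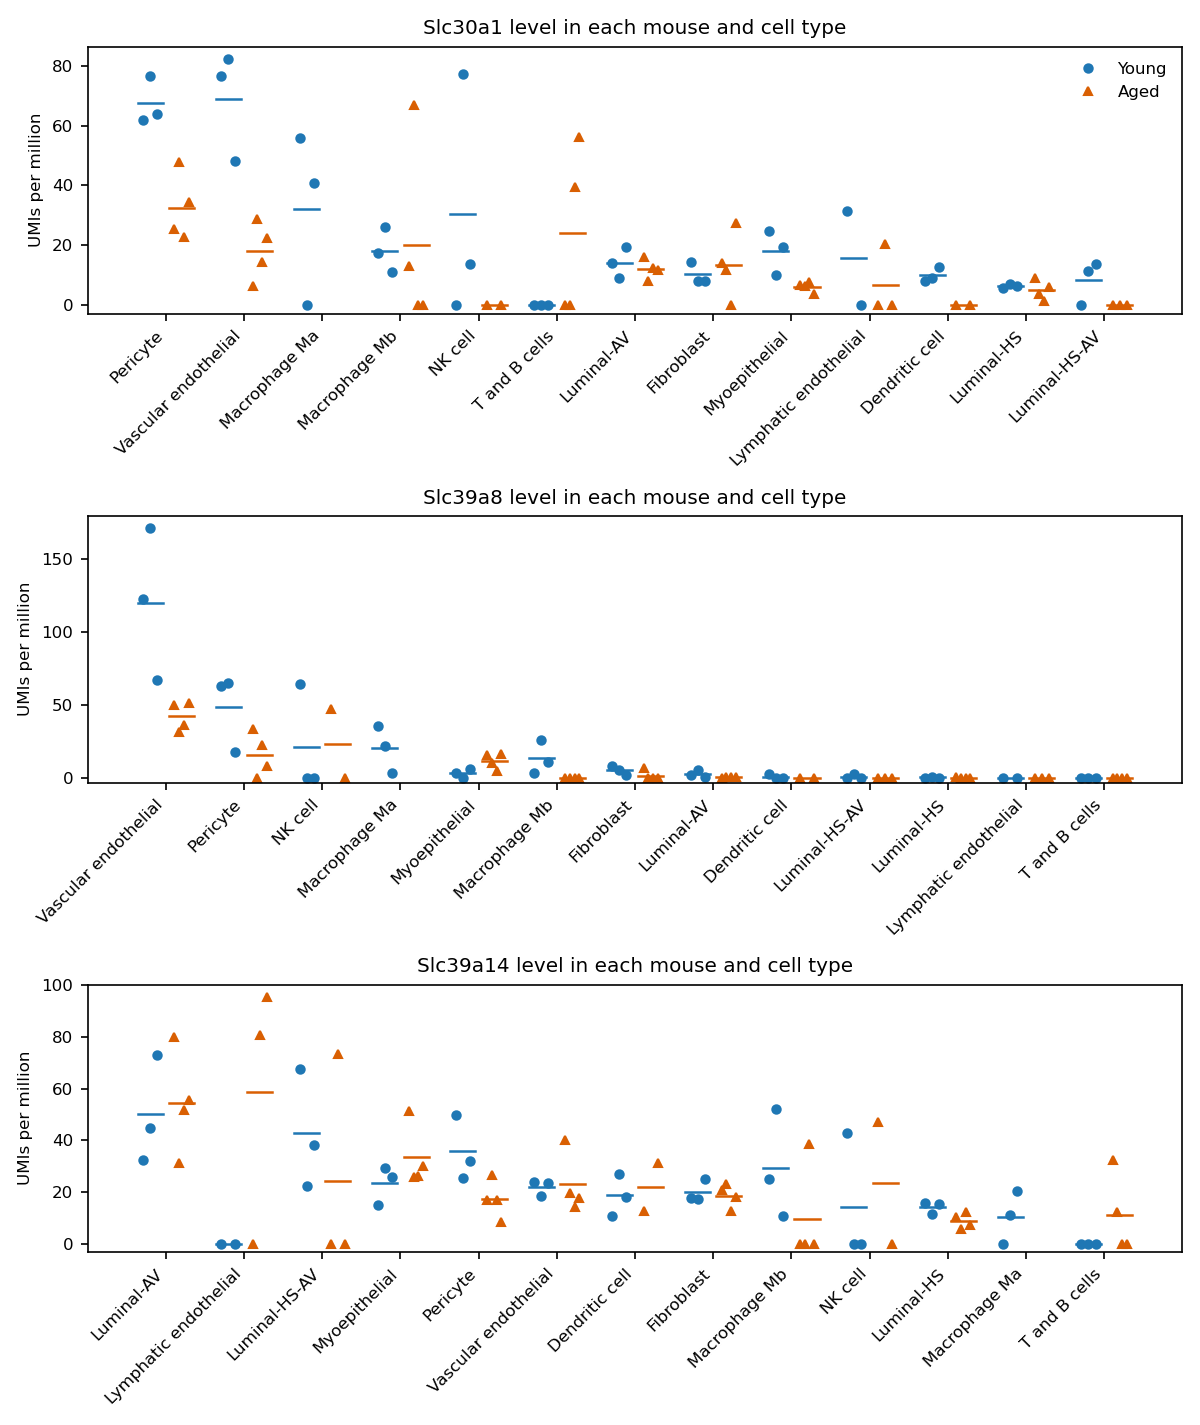
Slc30a1, Slc39a8 and Slc39a14 in CPM on linear axes, each with its own order of cell types by mean (blue circles, young mice; orange triangles, aged mice; bars, group means). Slc30a1 and Slc39a8 lead in pericytes and vascular endothelial cells, Slc30a1 with all young mice above all aged mice in both, and Slc39a14 has its highest mean in AV cells.

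Genes with the most similar pattern were sought over 58 sums of 1 mouse and 1 cell type, among 11614 genes, by Pearson correlation of log2(CPM + 1). The sums share mice and cell types, so no p is given. The gene most like Mt1 was Mt2 (r = 0.906), followed by Prss23 (0.817) and Tgfbr3 (0.801). After Mt1, Mt2 was closest to Prss23 (0.854) and Tgfbr3 (0.808). Slc39a8 was closest to Gm525 (0.852), Sema6a (0.852) and Tmem252 (0.821), and Slc30a1 to Sept4 (0.736), Taf5 (0.704) and Epas1 (0.701), the last a hypoxia-responsive transcription factor. Slc39a14 had looser neighbours, Npepps (0.637), Gid4 (0.590) and Wdr33 (0.584), as had Slc30a2, whose 21 UMIs gave A930016O22Rik (0.569), Ly6g6c (0.557) and Fam227a (0.535).

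Whether the 6 genes differed between young and aged mice was asked in each of 8 cell types with edgeR's quasi-likelihood test over all genes, with a call at an adjusted p under 0.05 and at least a 1.5-fold change. Of 27 tests of a member in a type, 6 gave a call, 3 of 5 in myoepithelial cells and 3 of 5 in vascular endothelial cells. In these types 27.6% and 26.7% of all genes tested were called, so many other genes moved as well. The tests are on sums over cells, and the share of cells with a UMI is given beside a called change where it was common enough to read.

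**Figure D3:**
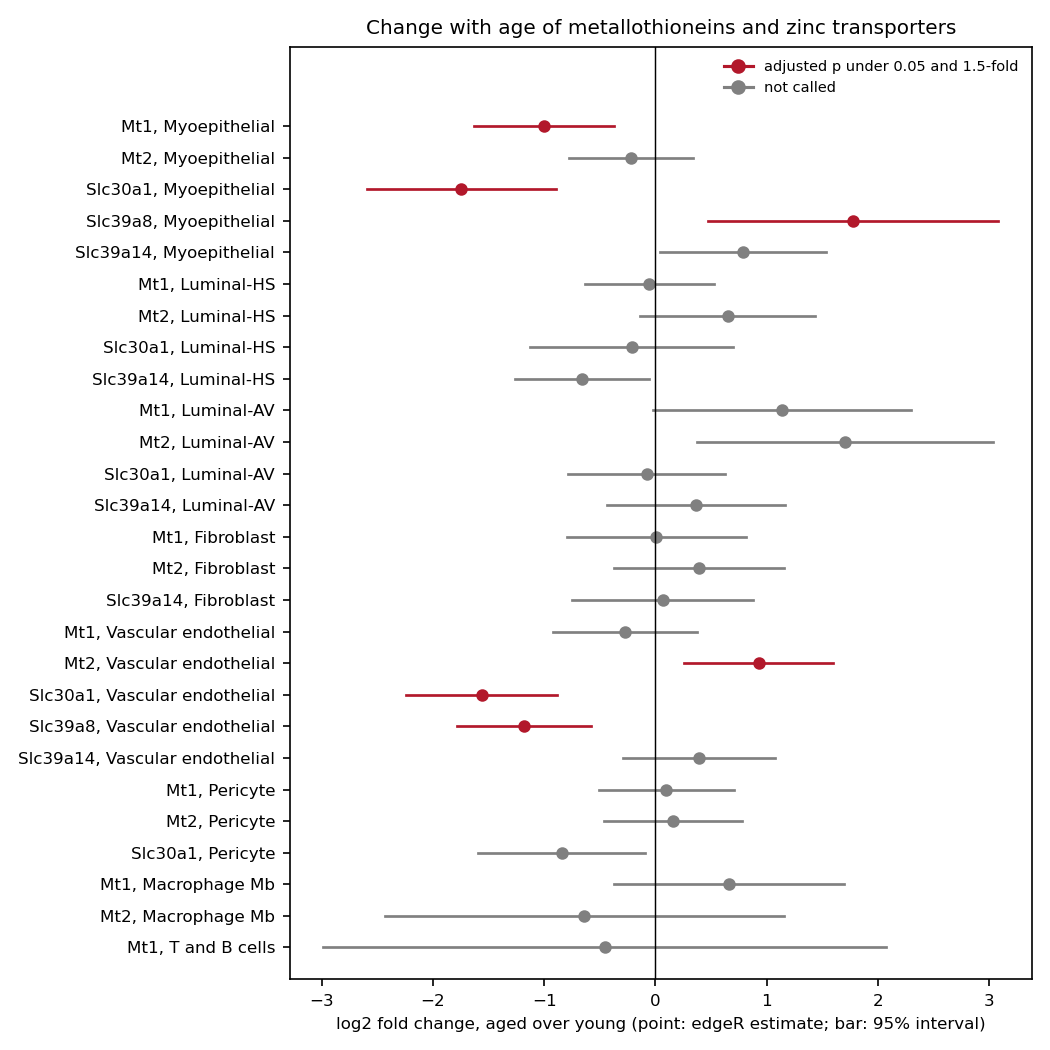
Log2 fold change of aged over young mice for each member and cell type that could be tested (point, edgeR estimate; bar, 95% interval; red, called; grey, not called). Calls lie in myoepithelial and vascular endothelial cells only, and Slc39a8 is right of 0 in the former and left of it in the latter.

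In myoepithelial cells, the contractile layer around ducts, Mt1 and Slc30a1 were lower and Slc39a8 higher in aged mice. Mt1 stood at 15405, 15881 and 17634 CPM in Young A, B and C and at 13086, 7473, 7133 and 3230.1 in Aged A to D. All aged mice were below all young mice, Aged A least and Aged D most. Its log2 change was -1.002 (SE 0.30, 95% interval -1.63 to -0.37, edgeR adjusted p = 0.0193), a 2.00-fold lower level. A Mt1 UMI was still found in 99.0% ± 1.32 of myoepithelial cells of young (SD, n = 3) and 96.4% ± 3.10 of those of aged mice (SD, n = 4), and after thinning in 98.2% and 91.0%. The call was lost without Young A (log2 change -1.04, adjusted p = 0.0637) and without Young C (-0.90, 0.0787), and no alternative changed the direction.

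Mt2 in the same myoepithelial cells was 9465, 9801 and 13238 CPM in the young and 13516, 9056, 7841 and 4762 in the aged mice. The groups overlapped, with Aged A above every young mouse, and the log2 change was -0.22 (interval -0.77 to 0.34, adjusted p = 0.574).

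Slc30a1 in myoepithelial cells was 24.5, 9.83 and 19.5 CPM in the young and 6.43, 6.2, 7.69 and 3.42 in the aged mice. The groups did not overlap, but the values rest on 26, 2 and 6 UMIs in young and 7, 18, 5 and 6 in aged mice. With a log2 change of -1.74 (SE 0.40, interval -2.60 to -0.89, adjusted p = 0.00435), it was 3.35-fold lower. Without Young A, Aged A, Aged B or Aged D the gene fell under the filter on low counts and could not be tested.

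Slc39a8 rose in myoepithelial cells from 3.78, 0 and 6.49 CPM (4, 0 and 2 UMIs) in the young to 15.6, 10.7, 4.62 and 16.5 (17, 31, 3 and 29 UMIs) in the aged mice. Aged C lay within the young range. The log2 change was 1.78 (SE 0.62, interval 0.47 to 3.08, adjusted p = 0.0400), and it was not called without Young A (1.77, adjusted p = 0.225), without Young B (1.56, 0.0835) or with DESeq2 (1.79, 0.106), and fell under the filter on low counts without Aged A, B or D. Slc39a14 was at 15.1, 29.5 and 26 CPM in the young and 51.4, 25.8, 26.2 and 30.2 in the aged mice, with no call (log2 change 0.79, adjusted p = 0.105).

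In vascular endothelial cells the transporters Slc30a1 and Slc39a8 were lower in aged mice, while Mt2 was higher. Slc30a1 was 76.8, 82.2 and 48.1 CPM in Young A, B and C (158, 151 and 35 UMIs) and 6.36, 28.6, 14.3 and 22.2 in Aged A to D (6, 41, 16 and 35 UMIs). The groups were well apart. Aged mice were 2.95-fold lower (log2 change -1.56, SE 0.31, interval -2.24 to -0.88, adjusted p = 0.00225), and the call held in 15 of 15 alternatives, with a highest adjusted p of 0.0170. The share of vascular endothelial cells with a Slc30a1 UMI was 26.5% ± 6.86 in young and 9.20% ± 4.32 in aged mice, and 13.2% and 3.39% after thinning.

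Slc39a8 in vascular endothelial cells was 122, 171 and 67.3 CPM in the young (252, 314 and 49 UMIs) and 49.8, 31.4, 36.5 and 51.4 in the aged mice (47, 45, 41 and 81 UMIs). The groups did not overlap in CPM and did so after the scaling of the fit (TMM, which removes differences in composition). The change on the log2 scale was -1.18 (SE 0.28, interval -1.78 to -0.58, adjusted p = 0.00613), 2.27-fold lower, and without Young B it was -0.83 with an adjusted p of 0.0506. A Slc39a8 UMI was found in 31.6% ± 8.10 of these cells in young and 17.2% ± 5.03 in aged mice (18.2% and 7.46% after thinning).

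Mt2 in vascular endothelial cells was 3437, 4644 and 2261 CPM in the young and 8031, 2786, 4958 and 4663 in the aged mice. Aged A was highest and Aged B lay among the young. Aged mice were 1.90-fold higher (log2 change 0.93, SE 0.31, interval 0.26 to 1.60, adjusted p = 0.0383). This call was lost in 7 of 15 alternatives, among them with DESeq2 (adjusted p = 0.110) and without Young A (log2 change 0.90, adjusted p = 0.109), Young C (0.71, 0.129), Aged A (0.63, 0.0855), Aged C (0.96, 0.0574) or Aged D (0.96, 0.0664).

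Mt1 in vascular endothelial cells was 5666, 8559 and 4424 CPM in the young and 6963, 2911, 2977 and 3224 in the aged mice. Aged B, C and D were below every young mouse and Aged A was not, and no change was called (log2 change -0.27, interval -0.92 to 0.38, adjusted p = 0.530). Without Aged A the log2 change was -0.68 and was called (adjusted p = 0.0230). Slc39a14 had a log2 change of 0.39 (adjusted p = 0.379).

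Luminal cells gave no call by edgeR. In HS cells, 0 of 4 members were called, against 6.26% of all genes, 1 had an unadjusted p under 0.05 and DESeq2 called 0. Mt1 there was 3024, 2564 and 3327 CPM in the young and 4717, 1862, 2145 and 2110.4 in the aged mice (log2 change -0.05, interval -0.64 to 0.53). Aged A was above all other mice and the rest of the aged mice below all young mice. Slc39a14 in HS cells had a log2 change of -0.66 (interval -1.26 to -0.06, adjusted p = 0.173).

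In AV cells 0 of 4 members were called by edgeR, against 6.16% of all genes, 1 had an unadjusted p under 0.05 and DESeq2 called 1. Mt2 in AV cells was 399, 633 and 447 CPM in the young and 2917, 296, 1268 and 840.1 in the aged mice. Aged A, C and D were above the young mice and Aged B below them. The log2 change was 1.70 (interval 0.37 to 3.03, adjusted p = 0.120), it was called by DESeq2 (1.68, adjusted p = 0.0347), and without Aged B it was 2.02 (adjusted p = 0.0170). Mt1 showed the same arrangement, with 1251, 1275 and 1152 CPM in the young and 4954, 687, 1956 and 1369 in the aged mice (log2 change 1.14, adjusted p = 0.223). For Slc39a14, which leads in AV cells, the values were 32.3, 45 and 73.1 CPM in the young and 79.8, 31.2, 51.7 and 55.4 in the aged mice, a log2 change of 0.36 with an interval of -0.43 to 1.16.

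In fibroblasts, the type with the most metallothionein, 0 of 3 members were called (3.17% of all genes; 0 at an unadjusted p under 0.05 and 0 by DESeq2). Mt1 was 10484, 17015 and 17321 CPM in the young and 24979, 9786, 15485 and 6345 in the aged mice, so the aged mice spread on both sides of the young. The log2 change was 0.01 with an interval of -0.79 to 0.81, and that of Mt2 was 0.39 (-0.38 to 1.16).

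In pericytes 0 of 3 members were called by edgeR (11.8% of all genes), with 1 at an unadjusted p under 0.05 and 0 by DESeq2. Slc30a1 was 61.8, 76.5 and 64 CPM in the young and 25.3, 47.7, 22.6 and 34.3 in the aged mice. The groups did not overlap, but the aged values rest on 3, 9, 4 and 4 UMIs, and the log2 change of -0.84 (interval -1.59 to -0.09) had an adjusted p of 0.128. In Mb macrophages 0 of 2 (1.16% of all genes) and in T and B cells 0 of 1 (0.656%) were called, with 0 at an unadjusted p under 0.05 and 0 by DESeq2 in each.

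A call in one type and not in another is no test of a difference, so the age effects of pairs of types from the same mice were compared directly, as the interaction of age and type with the mouse as a block. Over 6 pairs there were 27 tests of members and 6 calls. Against myoepithelial cells, the log2 age effect on Mt1 was higher by 1.78 in AV cells (SE 0.38, edgeR adjusted p = 0.00678) and by 0.94 in HS cells (SE 0.22, adjusted p = 0.0122). Both calls were kept without each mouse in turn and lost without the mouse term (adjusted p = 0.0743 and 0.245). In AV against myoepithelial cells 1 of 5 members and 9.25% of all genes were called, and in HS against myoepithelial cells 3 of 5 members and 9.52% of genes.

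The other calls of HS against myoepithelial cells were Mt2 (0.72, SE 0.21, adjusted p = 0.0325) and Slc39a14 (-1.51, SE 0.44, adjusted p = 0.0340). Neither was called by DESeq2 (adjusted p = 0.0924 and 0.122). Mt2 was lost in 10 of 12 alternatives, which besides DESeq2 were no filter on low counts (0.50, adjusted p = 0.0838), thinning (0.61, 0.0717), no mouse term (0.80, 0.331) and the fits without Young A (0.60, adjusted p = 0.135), Young B (0.76, 0.0566), Young C (0.71, 0.102), Aged A (0.50, 0.145), Aged C (0.67, 0.0707) or Aged D (0.72, 0.0551). Slc39a14 was lost in 7 of 12, which besides DESeq2 were thinning (-1.08, adjusted p = 0.450) and the fits without Young A (-1.19, adjusted p = 0.191), Young C (-1.63, 0.0643), Aged A (-1.42, 0.0638), Aged B (-1.504, 0.0608) or Aged D (-1.43, 0.0797). Between AV and HS cells 0 of 4 members were called (2.41% of genes), although 3 had an unadjusted p under 0.05 with edgeR and DESeq2 called 0. Mt1 and Mt2 were called for this pair without Aged B and with no filter on low counts.

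In the stroma, the age effect on Slc30a1 was lower by 2.35 (log2) in vascular endothelial cells than in fibroblasts (SE 0.63, adjusted p = 0.0283), the only call among 5 members (5.62% of genes). It was lost in 4 of 12 alternatives, without Aged A (-1.51, adjusted p = 0.401), without Aged D (-2.18, 0.0959), after thinning (-2.30, 0.159) and without the mouse term (-2.13, 0.108), and Slc30a1 counts in fibroblasts alone were too low for the age test. The age effect on Mt2 was higher by 0.73 in vascular endothelial cells than in pericytes (SE 0.19, adjusted p = 0.0139), 1 call among 5 members (9.6% of genes). It was lost without Young A (0.46, adjusted p = 0.213) and without the mouse term (0.81, 0.346). In fibroblasts against pericytes 0 of 3 members were called (0.928% of genes, 0 at an unadjusted p under 0.05 and 0 by DESeq2).

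The comparison of vascular endothelial with myoepithelial cells was added after the opposite signs of Slc39a8 had been seen. The age effect on Slc39a8 was lower by 2.94 in vascular endothelial cells (SE 0.56, adjusted p = 0.000700), and that on Mt2 was higher by 1.11 (SE 0.30, adjusted p = 0.0136). Of 5 members 2 were called, and 15.2% of all genes. The Slc39a8 call was kept in 12 of 12 alternatives. The Mt2 call was lost with DESeq2 (adjusted p = 0.129), without the mouse term (1.10, adjusted p = 0.113) and without Young A (1.17, adjusted p = 0.0524), Young C (0.69, 0.117) or Aged D (0.85, 0.0537). For Slc30a1, called lower in both types, the difference was 0.22 with an adjusted p of 0.818, and for Mt1 it was 0.75 (adjusted p = 0.0535).

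Because Mt1 and Mt2 were counted in the same cells, their ratio does not depend on library size. Myoepithelial cells had 1.53 ± 0.169 Mt1 UMIs per Mt2 UMI in young mice (SD, n = 3) and 0.845 ± 0.126 in aged mice (SD, n = 4). The young mice lay between 1.33 and 1.63 and the aged mice between 0.678 and 0.968, so every young mouse had more Mt1 than Mt2 and every aged mouse less. In vascular endothelial cells the ratio was 1.82 ± 0.156 in young (1.65 to 1.96) and 0.801 ± 0.197 in aged mice (0.6004 to 1.04). In HS cells it was 2.05 ± 0.230 in young and 1.34 ± 0.318 in aged mice, again with no overlap. The groups overlapped in AV cells (2.57 ± 0.559 against 1.80 ± 0.352), fibroblasts (1.37 ± 0.053 against 1.05 ± 0.235) and pericytes (3.21 against 3.12). The ratio was formed after the values were seen and is given with no test.

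**Figure D4:**
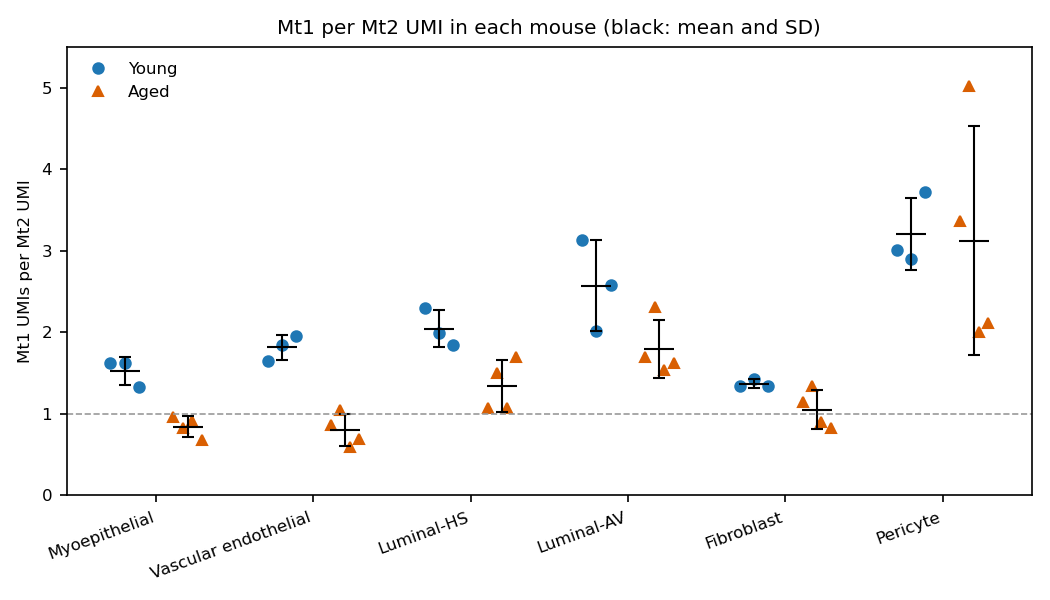
Mt1 UMIs per Mt2 UMI in each mouse for 6 cell types (blue circles, young; orange triangles, aged; black, mean and SD; dashed line, equal numbers). Young and aged mice separate in myoepithelial, vascular endothelial and HS cells and overlap in the other types, and the means are lower in aged mice in all 6.

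Beyond the members, the zinc-handling list held 23 genes, the other metallothioneins, Mtf1 and the remaining Slc30 and Slc39 transporters. There was no UMI of 3 of them (Slc30a8, Slc30a10 and Slc39a12), and 15 could be tested in at least 1 type. Over 54 age tests there were 3 calls, 2 higher and 1 lower. Of these, 1 was in HS cells, where 6.26% of all genes were called, and 2 were in vascular endothelial cells (26.7%). Slc30a4, a vesicular zinc exporter, was higher in aged HS cells (log2 change 1.47, adjusted p = 0.00322) with no overlap of the groups. Its age effect was lower by 1.56 in AV than in HS cells (adjusted p = 0.00921). The importer Slc39a1 was higher (1.02, adjusted p = 0.00542) and the importer Slc39a10 lower (-0.87, adjusted p = 0.00810) in aged vascular endothelial cells. The groups overlapped for Slc39a1 and did not for Slc39a10. The age effect on Slc39a1 exceeded that of myoepithelial cells by 1.11 (adjusted p = 0.0260) in the added comparison. The alternative fits were read for the members only, so these calls and differences were not checked against them. Mtf1, the zinc sensor, had log2 changes of -0.20 in myoepithelial, -0.16 in HS, -0.29 in AV and -0.68 in vascular endothelial cells (adjusted p = 0.144 in the last), none of them called.

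Other genes known to respond to the stimuli of metallothioneins are given beside these changes, and their part in them was not tested. Of all genes, edgeR called higher in aged mice 12.8% in myoepithelial cells, 14.7% in vascular endothelial cells, 2.07% in fibroblasts, 7.19% in pericytes and 3.93% in HS cells, and lower 14.8%, 12%, 1.11%, 4.61% and 2.33%. In Mb macrophages 0.931% of genes were called higher and 0.233% lower. Of the oxidative stress genes (Hmox1, Nqo1, Gclm, Srxn1, Txnrd1 and Slc7a11), 5 of 5 tested were called higher in aged myoepithelial cells, with a median log2 change of 2.39 (median of all genes 0.01), and 6 of 6 in vascular endothelial cells (2.17, all genes -0.05). In fibroblasts 2 of 4 were called higher (1.48), in pericytes 1 of 3 (1.43), in Mb macrophages 1 of 4 (1.83) and in HS cells 1 of 4 (0.38). In AV cells the 6 genes had a median of 0.49, and the edgeR adjusted p ranged from 0.0617 for Txnrd1 (log2 change 1.23) to 0.930 for Slc7a11 (-0.15), with no call. Of 7 glucocorticoid-responsive genes, 1 of 5 tested was called in myoepithelial cells, Per1, and it was lower (list median -0.55), and 3 of 7 were higher and 1 lower in vascular endothelial cells (0.60). In HS cells 1 of 7 (Sgk1) and in pericytes 1 of 6 (Errfi1) were called higher (0.47 and 0.11). Of 11 dissociation-response genes, 1 was called higher and 1 lower in myoepithelial cells (0.02), 1 higher and 2 lower in vascular endothelial cells (-0.12), 2 higher (Hspa1a and Hspa1b) and 1 lower (Fosb) in fibroblasts (0.54), and 5 higher and 1 lower in pericytes (0.65). In the other types and lists tested, edgeR's median log2 changes lay between -0.06 (dissociation response, HS cells) and 1.49 (the 1 glucocorticoid-responsive gene tested in Mb macrophages), with no call.

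Markers of other cell types also moved with the age groups, and their part in the results was not tested. Fibroblast markers (6 of 6 detected) summed to 447 to 782 CPM in myoepithelial cells of young and 55.3 to 180.1 in those of aged mice, against 13851 to 22322 in the fibroblasts of aged mice. The same markers were also lower with age in pericytes (476 to 855 against 50.9 to 202), in AV cells (89.9 to 398 against 10.1 to 34.7) and in vascular endothelial cells (79.5 to 381 against 43.3 to 62.5). In HS cells they went the other way, from 63.1 to 172 CPM in young to 290 to 1831 in aged mice, beside the HS ratio of Mt1 to Mt2 and the calls of HS against myoepithelial cells. Vascular endothelial markers in myoepithelial cells summed to 19.5 to 54.1 CPM in young and 11.4 to 46.2 in aged mice, which overlap. These markers reached 1836 to 2301 CPM in vascular endothelial cells. In pericytes they summed to 1628 to 1759 CPM in young and 733 to 1244 in aged mice, beside the pericyte levels of Slc30a1 and Slc39a8. In vascular endothelial cells, adipocyte markers summed to 188 to 299 CPM in young and 1.8 to 17.0 in aged mice, where Adipoq and Plin1 were at 0, and pericyte markers to 98.6 to 346 and 5.6 to 66.8. Red blood cell markers there summed to 1526 to 3805 CPM in young and 7.0 to 272 in aged mice. Epithelial markers (Epcam, Krt8, Krt18 and Krt19) in myoepithelial cells summed to 1091 to 1833 CPM in young and 2543 to 3329 in aged mice. AV markers there overlapped (1347 to 1427 against 1025 to 1680), and HS markers were lower in aged mice (45.3 to 108 against 9.23 to 37.7). Myoepithelial markers in these cells summed to 14588 to 22224 CPM in young and 11417 to 14160 in aged mice. Median depth was 4759.5 to 5226.5 UMIs in young and 3797 to 4856 in aged myoepithelial cells. It was 4421 to 4740 in young and 4805 to 5736.5 in aged vascular endothelial cells.

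Summed over all cells of a gland, Mt1 stood at 6297, 6904 and 7625 CPM in the young mice and at 7149, 2361, 2574 and 2104 in Aged A to D. Mt2 stood at 3760, 3939 and 5123 CPM in the young and at 5719, 2202.5, 2287 and 2159 in the aged mice. Aged B, C and D were below all young mice and Aged A was not. These sums also follow the mix of cells, since fibroblasts held 21.6% of all UMIs in young and 2.11% in aged mice, and AV cells 12.4% and 61.9%. Fibroblasts held 45.5% of the Mt1 UMIs of a young gland and 7.90% in an aged gland. In aged mice the largest parts came from AV (37.6% ± 15.5, n = 4) and myoepithelial cells (29.0% ± 17.0, n = 4). Slc39a14 UMIs shifted with the AV cells, from 25.7% ± 10.2 in AV cells of young mice (n = 3) to 79.3% ± 7.0 in aged mice (n = 4).

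**Figure D5:**
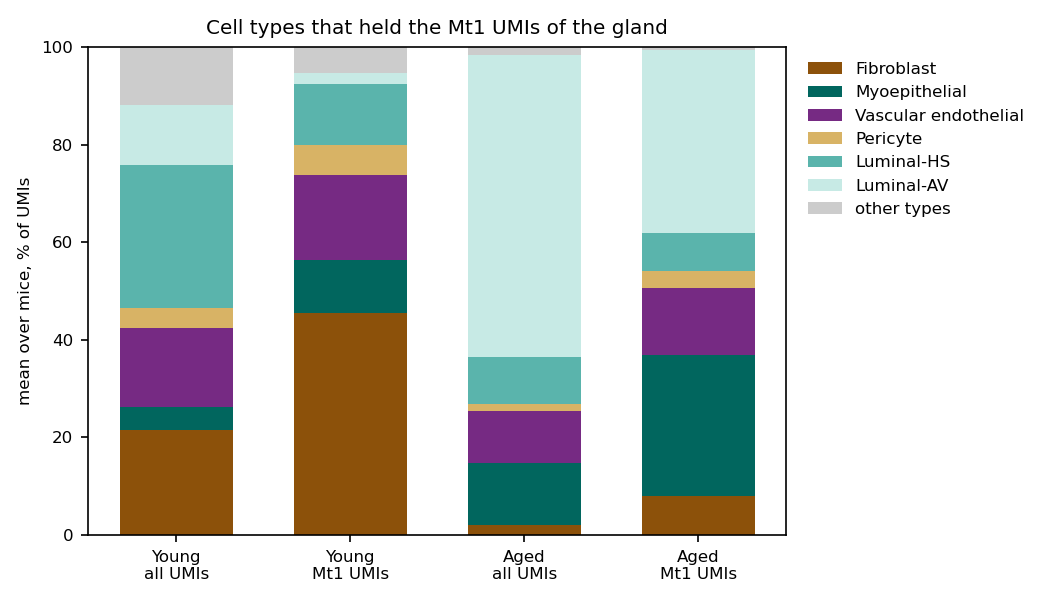
Stacked bars of the mean percent of all UMIs and of Mt1 UMIs that each cell type held, for young and aged mice. In young glands fibroblasts hold the largest part of Mt1 (45.5%), and in aged glands AV (37.6%) and myoepithelial cells (29.0%) do.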

How the data were processed

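For each mouse the authors prepared 1 library with the 3′ v2 kit of 10x and, per the submitters' processing notes, aligned reads to mm10 with Cell Ranger 2.0. They filtered cells on numbers of UMIs and genes and on mitochondrial share, and named cell types from Seurat clusters. The deposited values are UMI counts without normalization. Deposited cells had 2714 to 17158 UMIs. The authors meant their filters to remove potential doublets, and reported that the doublets they estimated were likely a negligible fraction. No doublet caller was run here.

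UMI counts of all cells of a type in a mouse were added up (at least 3 cells), filtered with filterByExpr, scaled by TMM and tested in edgeR 4.0.16 (R 4.3.3), with Benjamini-Hochberg adjustment over all genes tested. Levels in CPM are unscaled. Interactions had the mouse as a block. Likeness used sums of at least 10 cells. For detection, cells were thinned to 2000 UMIs. Fits were tested on simulated data with 200 genes changed by 2 on the log2 scale. The age fits recovered 71.5% to 90% of these genes and the interaction fits 54.5% to 73%. DESeq2 1.42.0, RLE factors, other filters, thinning and each mouse left out were alternatives. Upper limits for 0 cells use 3 counts. Dendritic, NK, Ma, lymphatic and HS-AV cells were not tested for age.

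Named are the 6 members, Mtf1 and each gene of the zinc list called with age or in an interaction, and the 3 genes most like each member. Members and lists were chosen with earlier results of these data known. Columns of cell-cycle scores and phases, computed by the authors, were not used. Mice sharing a letter are different animals.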

Additional observations from a re-analysis of the deposited data

Results flagged for a closer look

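In 4 of 32 groups of 4 aged mice, 1 mouse stood apart by Dixon's test (a gap to the nearest mouse of more than 0.829 of the range), where chance gives about 1 in 20. The mouse was Aged A, the highest, each time. The 32 groups are the same 4 mice, and the sums over all cells include the HS and vascular endothelial cells. The groups are therefore not independent, and 4 of 32 cannot be read as more than that rate. For Mt1 the gap was 0.901 of the range in HS cells (4717 CPM against 1862 to 2145) and 0.923 in vascular endothelial cells (6963 against 2911 to 3224). Over all cells it was 0.907 for Mt1 (7149 against 2104 to 2574) and 0.964 for Mt2 (5719 against 2159 to 2287).

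Age effects that differed between cell types by edgeR's interaction test were the following differences in log2 change. Against myoepithelial cells, Mt1 differed by 1.78 in AV and by 0.94 in HS cells, and in HS cells Mt2 differed by 0.72 and Slc39a14 by -1.51. Slc30a4 differed by -1.56 in AV against HS cells. Slc30a1 differed by -2.35 in vascular endothelial cells against fibroblasts, and Mt2 by 0.73 against pericytes. In the comparison added after seeing the data, of vascular endothelial with myoepithelial cells, Slc39a8 differed by -2.94, Mt2 by 1.11 and Slc39a1 by 1.11.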

How the results depend on the processing

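The number of age changes called, 6 as reported, was 6 with RLE factors, without ribosomal and mitochondrial genes, with at least 10 cells and without the fold minimum, and all 6 were the reported ones. It was 5 with DESeq2 (4 of the 6, and Mt2 in AV cells), 7 with no filter on low counts (the 6, and 1 in pericytes), 4 after thinning (4 of the 6, the other 2 falling under the filter), and 2 to 5 without 1 mouse (2 without Young A, 3 without Aged D). The counts without Aged A and without Aged B hold 1 change each that is not among the 6. The fit with at least 10 cells was not run for Mb macrophages and for T and B cells. The 6 differences between cell types became 7 with RLE factors, 4 with DESeq2, 11 with no filter, 5 after thinning, 1 without the mouse term and 3 to 9 without 1 mouse (3 without Aged A or Aged D). The 2 of the added comparison became 1 with DESeq2, 1 without the mouse term and 1 to 3 without 1 mouse. The cause of these shifts was not tested.

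With the label letter as a replicate block, 2 of the 6 changes were called, both in vascular endothelial cells, and the log2 change of Slc30a1 in AV cells became 0.021. The letters name different animals and do not pair the mice, whose deviations correlated between -0.17 and 0.37.

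Directions turned only among uncalled age changes, in 19 values. Mt1 in fibroblasts became -0.20 (log2) with no filter, -0.0075 after thinning, and -0.22 without Young A, with a range of -0.43 (without Aged A) to 0.25 when 1 mouse was left out, and Slc39a14 there -0.13 with no filter. In pericytes, Mt1 became -0.058 with no filter, -0.12 without Young C and -0.26 without Aged A (range up to 0.26), and Mt2 -0.13 and -0.086 without the same mice (up to 0.35). Slc30a1 in AV cells became 0.26 without Young C and 0.092 without Aged B (range from -0.26). Mt1 became 0.043 in vascular endothelial cells without Young B (range from -0.68), and 0.048, 0.047 and 0.044 in HS cells without Young C, Aged B and Aged C (range from -0.37). Without Young C, Mt2 in Mb macrophages became 0.16 (range from -1.37) and Mt1 in T and B cells 1.88 (range from -1.30). The highest cell type of each member by CPM was the same under thinning for 6 of 6, Slc30a2 with its few UMIs among them. By share of cells with a UMI the highest type was Ma macrophages for Mt1 and myoepithelial cells for Mt2, before and after thinning. Of 48 shares of a member in a tested type, 20 moved by more than their SD over mice under thinning. Depth limits the transporters most, since Slc30a1 and Slc39a8 rest on 0 to 31 UMIs per mouse in myoepithelial cells.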
